A study of Mus musculus with 6 samples.

Results

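Rgcc, Trp53i11 and 8 genes of the p53 response were followed in crypt cells of the jejunum of mice deficient for Sox9 and of wild type littermates. The members, 10 genes in all, were Rgcc, Trp53i11, Trp53, Mdm2, Cdkn1a, Ccng1, Bax, Zmat3, Sesn1 and Trp53inp1, and each was read through every probe set whose platform annotation gives its symbol alone. Rgcc and Trp53i11 were chosen by their KO minus WT difference on these same arrays, so their group differences are given as a description without a test. The rule found 18 probe sets for 8 members among 45037 on the array, and 15 of them, covering those 8 members, had a mean log2 intensity of at least 4 over the 6 arrays and entered the test. Trp53 and Bax were not analysed here.

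KO 1 to KO 3 were Sox9-deficient mice and WT 1 to WT 3 were wild type littermates, all C57BL/6 and 3 months old, with 1 single-colour Affymetrix array for each mouse. The sources used here do not give the promoter that drives the deletion, the deleted part of Sox9 or the sex of each mouse. The values are log2 GCRMA intensities, in which a difference of 1 is a doubling of signal. Of the 3 Sox9 probe sets, 1 (1451538_at) read 2.42 to 2.75 in KO and 5.84 to 7.61 in WT, and the other two did not part the groups. Arrays carry no read depth, and 3 mice in each group limit the precision. All 14 crypt epithelium markers were above the filter, and their mean level was 12.72 to 13.00 in KO and 12.73 to 12.99 in WT. Paneth cell markers averaged 10.03 to 10.65 in KO and 11.28 to 11.99 in WT over 7 genes, and of 6 tested 4 were lower and 0 higher at an unadjusted p under 0.05 in limma. Enterocyte markers averaged 14.07 to 14.23 in KO and 13.48 to 14.02 in WT over 12 genes, with 3 higher and 0 lower at that p, and 0 genes of either list passed after adjustment. Over all tested probe sets 3.62% had such a p, in either direction. The part of these cell types in the values below was not tested. Both groups gave RNA from a whole crypt preparation, where fewer cells of a type and less RNA per cell cannot be told apart. A set of 3 Y-linked genes averaged 2.71 to 2.83 on all KO arrays and 2.75 on WT 3, but 7.85 on WT 1 and 8.34 on WT 2. The Gapdh control, read at its 3′ and 5′ ends as a sign of RNA integrity, had a 3′ minus 5′ difference of 0.37 to 0.91 on the KO arrays, and of 0.61, 0.65 and 1.75 on WT 1 to WT 3.

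p53, the product of Trp53, is a transcription factor that accumulates after DNA damage and other stress. It switches on genes that halt the cell cycle, repair DNA or start apoptosis, and it also switches on Mdm2, whose product marks p53 for destruction and so closes a feedback loop. In the small intestine crypt cells respond to radiation through this pathway, with Cdkn1a-dependent arrest and apoptosis of cells at the crypt base as its known outcomes. RGCC, also called response gene to complement, was described in human cells as p53-inducible and as a binding partner of the mitotic kinases CDK1 and PLK1, and it is abundant in vascular endothelium. Human TP53I11 was found in a screen for transcripts induced by p53.

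The stretches just upstream of the genes are shown because the members part in whether they hold a match to the p53 half-site, a pattern of 10 bases. Of the 2 annotated starts of Cdkn1a only the first had such a match, and its window is the one printed. Sequences are from RefSeq on build GRCm38.p6 and cover the 250 bases before the annotated start, 5′ to 3′ along the gene. The window lies at chr14:79301636-79301885 on the minus strand for Rgcc, at chr2:93187298-93187547 on the plus strand for Trp53i11, and at chr17:29090729-29090978 on the plus strand for the first of 2 annotated starts of Cdkn1a. Capitals mark GC boxes (GGGCGG on either strand) in the first pair and p53 half-sites in Cdkn1a.
Rgcc: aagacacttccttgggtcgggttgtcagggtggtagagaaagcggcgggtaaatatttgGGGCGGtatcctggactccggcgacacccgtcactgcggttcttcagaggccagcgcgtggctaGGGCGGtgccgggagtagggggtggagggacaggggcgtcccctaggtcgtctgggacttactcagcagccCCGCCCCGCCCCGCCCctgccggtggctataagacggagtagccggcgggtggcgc
Trp53i11: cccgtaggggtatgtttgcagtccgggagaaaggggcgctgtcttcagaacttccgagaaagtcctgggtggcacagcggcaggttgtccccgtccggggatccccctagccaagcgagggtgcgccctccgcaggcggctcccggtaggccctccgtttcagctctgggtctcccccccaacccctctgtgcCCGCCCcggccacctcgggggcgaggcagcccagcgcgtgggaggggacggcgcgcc
Cdkn1a: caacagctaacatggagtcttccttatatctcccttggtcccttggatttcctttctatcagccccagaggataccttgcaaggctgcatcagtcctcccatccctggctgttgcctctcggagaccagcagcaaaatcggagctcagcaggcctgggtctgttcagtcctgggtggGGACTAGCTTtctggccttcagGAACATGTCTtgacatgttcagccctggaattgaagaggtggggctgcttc

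The search covered both strands for the p53 half-site consensus of 10 bases, for the SOX-type letters ACAAT and ACAAAG, and for the GC box, which is bound by Sp1-type factors. Half-sites matched in the first of the Cdkn1a windows (GGACTAGCTT and GAACATGTCT, beginning 73 and 51 bases before its start), in those of Mdm2 (GAACTTGCCT, 186 bases before) and Ccng1 (GGGCAAGCCT, 185 bases before), and in the second of the Sesn1 windows (AAGCTTGTTT, 173 bases before). The second Cdkn1a window held no half-site and 2 GC boxes, and the first Sesn1 window held no half-site and 4 GC boxes. Neither Rgcc nor Trp53i11 held one in its window, and of all 32841 upstream windows of this length 7.13% did. The SOX-type letters were in none of the windows of these 6 genes, while that of Trp53, whose expression was not analysed here, held ACAAAG or its complement beginning 163 and 41 bases before the start and a half-site (GGACTTGCCC, 75 bases before). Bax, likewise not analysed, held a half-site (AGGCAAGCTT, 201 bases before). Zmat3 and Trp53inp1 had no window in the sequences used here and were not searched. ACAAT occurs in 27.66% and ACAAAG in 16.46% of all windows. Rgcc held 5 GC boxes, some overlapping by 1 base, and Trp53i11 held 1, against 32.75% of all windows with at least 1. Their windows were rich in G and C, at 66.8% and 71.2%, where the median window had 52.4%. A match is a description of letters, and a window without one says nothing of sites elsewhere.

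Rgcc had the widest gap between the groups among the members. On its brighter probe set (1438511_a_at) it read 9.89, 9.62 and 8.88 in KO 1 to KO 3, against 4.84, 4.04 and 6.88 in WT 1 to WT 3. On the other (1418003_at) it read 10.21, 9.64 and 9.16 in KO 1 to KO 3, against 4.07, 3.12 and 5.77 in WT 1 to WT 3. All KO arrays lay above all WT arrays on both probe sets, WT 3 was the highest control and WT 2 the lowest. Group means (± SD, n = 3) were 9.46 ± 0.52 for KO and 5.25 ± 1.46 for WT on the brighter probe set, and 9.67 ± 0.53 for KO and 4.32 ± 1.35 for WT on the other. The differences were 4.21 ± 0.72 and 5.35 ± 0.67 (SE), or 18.5-fold and 40.9-fold. The lowest control value, 3.12 on WT 2, stood close to that array's median over all probe sets, 2.96, where GCRMA compresses differences.

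WT 3, the control without Y-linked signal, had a Rgcc reading between those of the mutants and those of WT 1 and WT 2. With the Y-linked signal as a term in the fit the differences were 2.57 on the brighter probe set and 3.88 on the other. All KO arrays and WT 3 are low in that signal, so values with this term, here and below, compare KO chiefly with WT 3. With the Gapdh 3′ minus 5′ difference as a term they were 5.01 and 6.08. Of 14 endothelial markers, the cell type in which Rgcc is abundant, 12 were under the filter. The adhesion gene Cdh5 stood at 2.2 in both groups, as did the VEGF receptor gene Kdr, and Pecam1 stood at 2.3 in both. Those above the filter were Esam, at 5.07 in KO and 4.73 in WT, and Egfl7, at 4.71 in KO and 4.87 in WT. The mean level over the endothelial markers was 2.74 to 2.89 in KO and 2.80 to 2.85 in WT. Stromal and smooth muscle markers lay at 2.97 to 3.13 in KO and 2.98 to 3.08 in WT.

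Trp53i11 was measured by 1 probe set (1436919_at). It read 7.80, 7.83 and 8.09 in KO 1 to KO 3, against 5.24, 6.46 and 5.39 in WT 1 to WT 3. The mutants lay within 0.3 of each other and above every control, with WT 2 the nearest. Means (± SD, n = 3) were 7.91 ± 0.16 for KO and 5.70 ± 0.66 for WT. The difference was 2.21 ± 0.34 (SE), which is 4.63-fold. Its controls ran in another order than those of Rgcc, since WT 2 was the highest control for Trp53i11 and the lowest for Rgcc. The difference was 2.56 with the Y-linked signal in the fit and 2.06 with the Gapdh difference in it. Leukocyte markers, which are present in crypt preparations, averaged 7.24 to 8.16 in KO and 5.52 to 7.68 in WT over 13 genes, lowest on WT 1, and their part in the Trp53i11 difference was not tested. Without WT 1 the difference was 1.98.

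**Figure D1:**
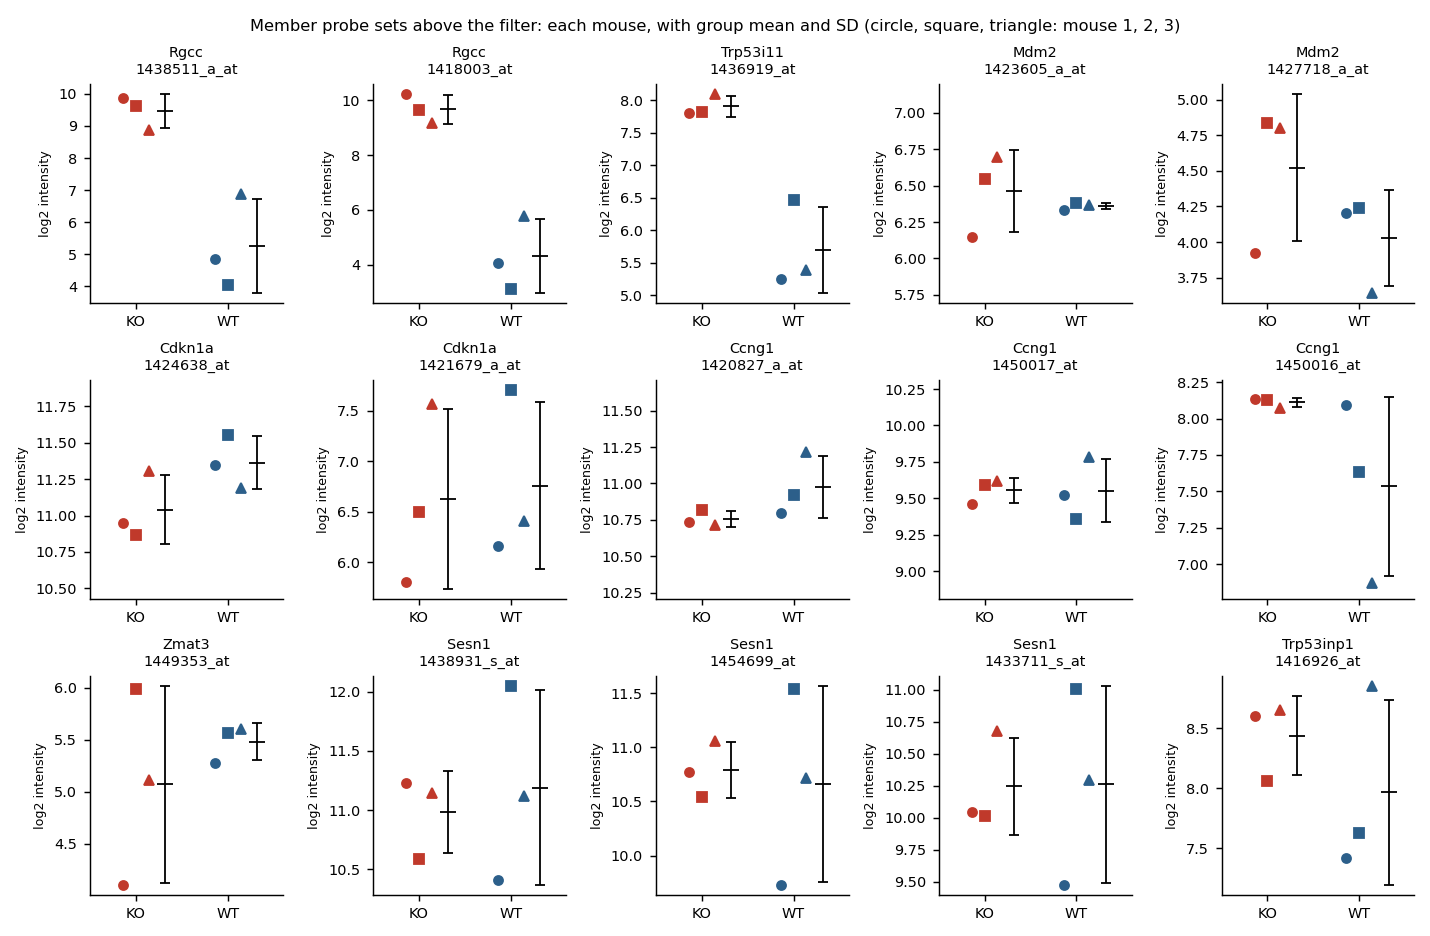
Log2 intensity (y axis) of the 15 member probe sets above the filter, with 1 point for each mouse, KO left of WT, and the group mean ± SD beside the points (n = 3 each). The 3 KO points lie above the 3 WT points in the panels of Rgcc and Trp53i11, and the groups overlap in the other 12 panels; each panel has its own y range.

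Mdm2, the feedback inhibitor of p53, did not differ beyond the spread between mice. Its brightest probe set (1423605_a_at) read 6.15, 6.54 and 6.69 in KO 1 to KO 3, against 6.34, 6.38 and 6.37 in WT 1 to WT 3. The controls lay within 0.1 of each other and inside the range of the mutants. The difference was 0.10, with a 95% interval from -0.37 to 0.58 (limma adjusted p = 0.999). A dimmer probe set (1427718_a_at) read 3.93, 4.84 and 4.80 in KO 1 to KO 3, against 4.20, 4.24 and 3.64 in WT 1 to WT 3. KO 2 and KO 3 were the highest there and KO 1 lay among the controls, a difference of 0.49 with an interval from -0.26 to 1.25 (limma adjusted p = 0.999; 0.79 without KO 1 and 0.30 without WT 3). The remaining Mdm2 probe set, at 2.06 in KO and 2.08 in WT, was under the filter.

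Cdkn1a encodes p21, the inhibitor of cyclin-dependent kinases through which p53 halts the cell cycle. On its brighter probe set (1424638_at) it read 10.95, 10.87 and 11.31 in KO 1 to KO 3, against 11.35, 11.55 and 11.19 in WT 1 to WT 3. KO 3 lay above WT 3, while the other mutants lay below every control. The difference was -0.32, with an interval from -0.81 to 0.16 (limma adjusted p = 0.999), so that the interval does not reach a doubling in either direction. The dimmer probe set (1421679_a_at) read 5.81 to 7.57 in KO and 6.16 to 7.70 in WT, a difference of -0.13 (-1.49 to 1.22), where KO 3 and WT 2 were the high arrays of their groups. That value became 0.27 without KO 1 and 0.34 without WT 2.

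Ccng1 encodes cyclin G1, a p53 target that binds a phosphatase subunit and acts on Mdm2. Its 3 probe sets did not give the same picture. The brightest (1420827_a_at) read 10.74, 10.82 and 10.72 in KO 1 to KO 3, against 10.80, 10.92 and 11.21 in WT 1 to WT 3, a difference of -0.22 (95% interval -0.65 to 0.22). The middle one (1450017_at) averaged 9.55 in both groups (difference 0.00, -0.44 to 0.44). The dimmest (1450016_at) read 8.13, 8.12 and 8.07 in KO 1 to KO 3, against 8.10, 7.63 and 6.87 in WT 1 to WT 3, a difference of 0.58 (-0.18 to 1.33). WT 3 was thus the highest array on the first pair of probe sets and the lowest on the dimmest. WT 3 is also the array with the largest Gapdh 3′ minus 5′ difference, and the value of the dimmest probe set was 0.29 with that difference as a term and 0.25 without WT 3. It was 0.86 without WT 1 and 1.21 with the Y-linked signal as a term. None of the 3 passed in limma (smallest adjusted p = 0.999).

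Zmat3 encodes a zinc finger protein that binds RNA and is induced by p53. Its probe set (1449353_at) read 4.11, 5.99 and 5.12 in KO 1 to KO 3, against 5.28, 5.56 and 5.60 in WT 1 to WT 3. KO 1 was the lowest array and KO 2 the highest, so the mutants enclosed the controls. The difference of -0.41 had an interval from -1.50 to 0.69 (limma adjusted p = 0.999) and became 0.07 without KO 1 and -0.87 without KO 2.

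Sesn1 encodes a sestrin, a stress protein that restrains mTORC1 signalling. Its 3 tested probe sets agreed on the order of the controls, with WT 1 lowest and WT 2 highest in each. On the brightest (1438931_s_at) it read 11.23, 10.59 and 11.14 in KO 1 to KO 3, against 10.41, 12.05 and 11.12 in WT 1 to WT 3. The controls spanned more than the mutants and enclosed them. Differences over the 3 probe sets were -0.20, 0.13 and -0.02, and the widest interval ran from -0.95 to 1.21 (limma adjusted p = 0.999 each). Probe sets with the suffix _s_at, which 2 of these carry, can also detect transcripts of other genes. A further Sesn1 probe set, at 3.54 in KO and 3.43 in WT, was under the filter.

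Trp53inp1 encodes a nuclear protein that is induced by p53 and promotes p53 activity and autophagy. It read 8.60, 8.06 and 8.65 in KO 1 to KO 3, against 7.42, 7.63 and 8.85 in WT 1 to WT 3 (1416926_at). WT 3 was the highest of all arrays, while WT 1 and WT 2, which carry the Y-linked signal, were below every mutant. WT 3 also had the largest Gapdh 3′ minus 5′ difference (1.75), and the cause of its high value was not tested. The difference was 0.47 (-0.50 to 1.45; limma adjusted p = 0.999), and it was 0.91 without WT 3 and -0.39 with the Y-linked signal as a term. Its other probe set, at 2.37 in KO and 2.38 in WT, was under the filter.

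**Figure D2:**
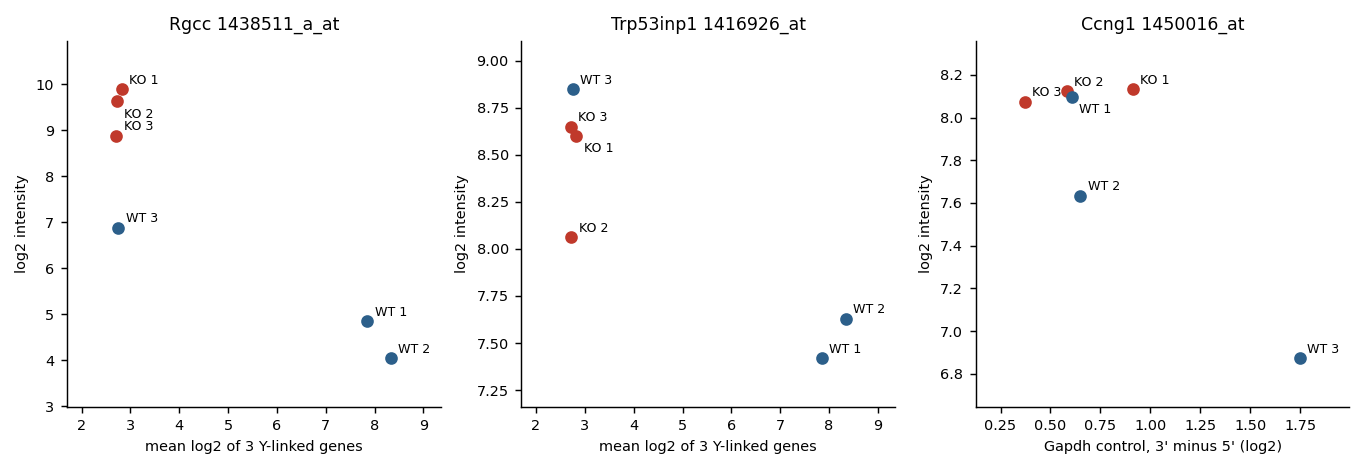
Log2 intensity (y axis) of Rgcc and Trp53inp1 against the mean log2 intensity of 3 Y-linked genes, and of the dimmest tested Ccng1 probe set against the Gapdh 3′ minus 5′ difference (x axes), with 1 labelled point for each mouse, KO in red and WT in blue. WT 3 lies apart from WT 1 and WT 2 on both x axes, with Rgcc at 6.88, Trp53inp1 at 8.85 and Ccng1 at 6.87.

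Over all tested probe sets, every KO array lay above every WT array in 5.09% and below in 4.03%, and an adjusted p under 0.05 was reached in 0.011%. Of the 15 member probe sets 3 had all mutants above all controls, and these are the ones of Rgcc and Trp53i11 that the choice of members rests on, so nothing is read from that count. Of the other 12 member probe sets, 0 had groups that did not overlap, where the share over all tested probe sets was 9.12%. By limma 0 of these 12 passed after adjustment and 0 had an unadjusted p under 0.05, against 3.62% over all. Their differences ran from -0.41 to 0.58, with 6 positive (positive over all: 53.9%) and 6 negative, and with a median of -0.01, against 0.03 over all tested probe sets. These 12 probe sets come from 6 genes. With only the brightest tested probe set of each, 2 differences were positive and 4 negative, with a median of -0.21.

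**Figure D3:**
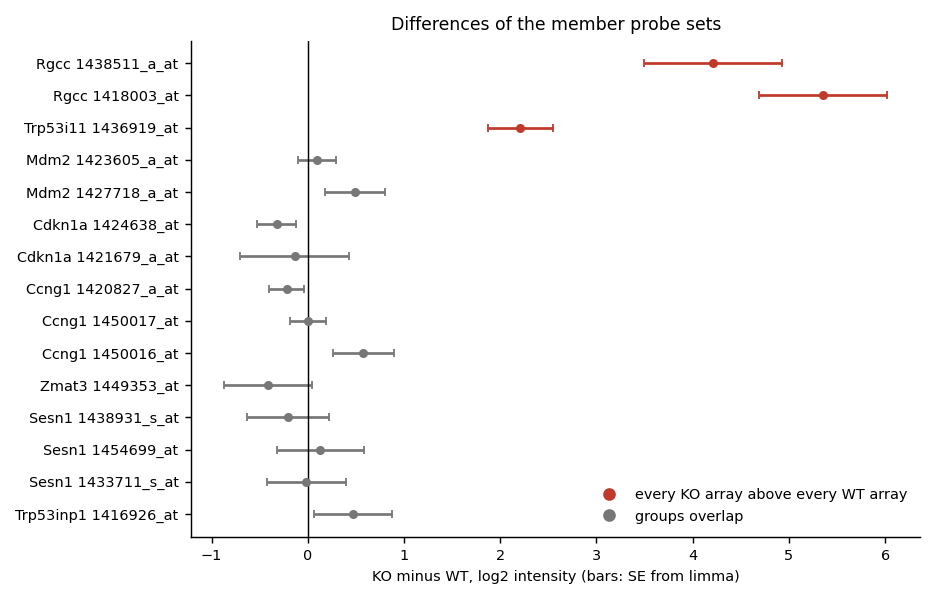
Difference KO minus WT in log2 intensity (x axis) for the 15 tested member probe sets (rows), with bars for the SE from limma. Rgcc (4.21 and 5.35) and Trp53i11 (2.21) stand to the right, and the other 12 lie between -0.41 and 0.58.

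Other genes under p53 control had a median difference close to that of all probe sets. Of 37 listed p53 targets 36 had a probe set with 1 symbol and 28 were tested, 1 probe set for each gene. In limma 0 passed in either direction, beside 0.011% over all tested probe sets. An unadjusted p under 0.05 was reached by 0 of these genes, beside 3.62% over all. Their median difference was 0.02, against 0.03 over all tested probe sets, with 16 positive and 12 negative. Psrc1, which encodes a spindle-associated protein, read 7.22, 6.21 and 6.21 in KO 1 to KO 3, against 5.53, 5.07 and 6.20 in WT 1 to WT 3 (difference 0.94, or 0.61 without KO 1 and 0.34 with the Y-linked signal in the fit). Its lowest mutant exceeded its highest control by less than 0.01. Ddb2, which recognises damaged DNA in nucleotide excision repair, differed by 0.54 (7.32 ± 0.34 for KO against 6.79 ± 0.19 for WT, SD, n = 3). Ppm1d, the phosphatase Wip1 that dampens p53 signalling, differed by 0.51 (0.34 without KO 1). In these 3 of 28 genes all mutants were above all controls, beside 5.09% over all tested probe sets, and each had a limma adjusted p of 0.999. The antiproliferative gene Tob1 differed by -0.41 (-0.26 without WT 2). Phlda3, an inhibitor of Akt signalling singled out after its values were seen, read 4.64, 3.76 and 4.30 in KO 1 to KO 3, against 3.17, 3.23 and 3.30 in WT 1 to WT 3, and its mean was under the filter.

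Regulators of p53 had a median difference of 0.00. Of 19 listed, 16 were tested, 0 passed in limma, and 1 had an unadjusted p under 0.05, beside 3.62% over all tested probe sets. That gene was Ppp1r13l, which encodes iASPP, an inhibitor of p53. It read 6.97, 6.61 and 7.06 in KO 1 to KO 3, against 7.25, 7.98 and 7.57 in WT 1 to WT 3 (difference -0.72, limma adjusted p = 0.999). Every mutant lay below every control, as in 4.03% of all tested probe sets. The acetyltransferase gene Kat5 differed by 0.36 (0.59 without WT 1 and -0.04 without WT 3), the checkpoint kinase gene Chek1 by 0.18 (0.37 without WT 1 and -0.0840 without WT 2) and the coactivator gene Ep300 by -0.16 (-0.33 without KO 3 and -0.00637 without KO 1). The p53 relatives Trp63 and Trp73 stood at 2.6 and the tumour suppressor gene Cdkn2a at 2.2 in both groups, under the filter. Of 8 listed genes with a Trp53 symbol that are not members, 5 were tested. None passed in limma, beside 0.011% over all tested probe sets. All 5 had a negative difference, where 53.9% of all tested probe sets had a positive one. Trp53bp1 and Trp53bp2 are also among the regulators counted above. Trp53i13 differed by -0.73 (5.47 ± 0.45 in KO and 6.21 ± 0.64 in WT; -0.38 without WT 2), Trp53inp2 by -0.39 (-0.13 without KO 1 and -0.16 without WT 2), Trp53rka by -0.18 (-0.11 without KO 2) and Trp53bp2 by -0.11 (0.0479 without KO 1).

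Relatives of the members in the sestrin, cyclin G and Cip/Kip families had small differences. Sesn2 differed by 0.02, Sesn3 by -0.02, Ccng2 by 0.15 and the p27 gene Cdkn1b by -0.02. In limma 0 of these 4 passed after adjustment, beside 0.011% over all tested probe sets. An unadjusted p under 0.05 was reached by 0 of them, beside 3.62% over all. In the apoptosis list 17 of 20 genes were tested, with a median difference of -0.01. There too 0 passed in limma and 0 had an unadjusted p under 0.05, beside those same shares over all. Nothing is read from counts of 0 in lists this short. The BCL2 relative Bok differed by 0.95 (8.55 ± 0.96 for KO and 7.60 ± 0.51 for WT, SD, n = 3), the BH3-only genes Bmf by -0.67, Bcl2l11 by 0.57 and Bad by -0.34. These values moved when single arrays were left out. Bok stood at 0.40 without KO 1, Bmf at -0.20 without WT 2, Bad at -0.22 without WT 1 and Bcl2l11 at 0.35 without WT 1 and 0.96 without WT 3. With the Y-linked signal in the fit Bmf stood at -0.0894, Bad at -0.0943 and Bcl2l11 at -0.19.

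The G2 and mitotic genes include Cdk1 and Plk1, whose human proteins bind RGCC. All 9 tested genes of that list had a positive difference (53.9% over all tested probe sets), with a median of 0.36 against 0.03 over all. In limma 0 passed, beside 0.011% over all, and 0 had an unadjusted p under 0.05, beside 3.62%. Cdk1 read 11.55, 11.48 and 11.27 in KO 1 to KO 3, against 11.37, 10.59 and 11.23 in WT 1 to WT 3. Plk1 read 9.58, 9.53 and 9.69 in KO 1 to KO 3, against 9.54, 8.68 and 9.30 in WT 1 to WT 3. WT 2 was the low array in both genes, and its list median from each gene's own mean was -0.65, where the other arrays lay between -0.02 and 0.28. Foxm1 (0.69) and Ccnb2 (0.41) had the same low array. Without WT 2 the differences were 0.13 for Cdk1, 0.18 for Plk1, 0.39 for Foxm1 and 0.26 for Ccnb2, and Ccnb2 was at 0.21 without KO 1.

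**Figure D4:**
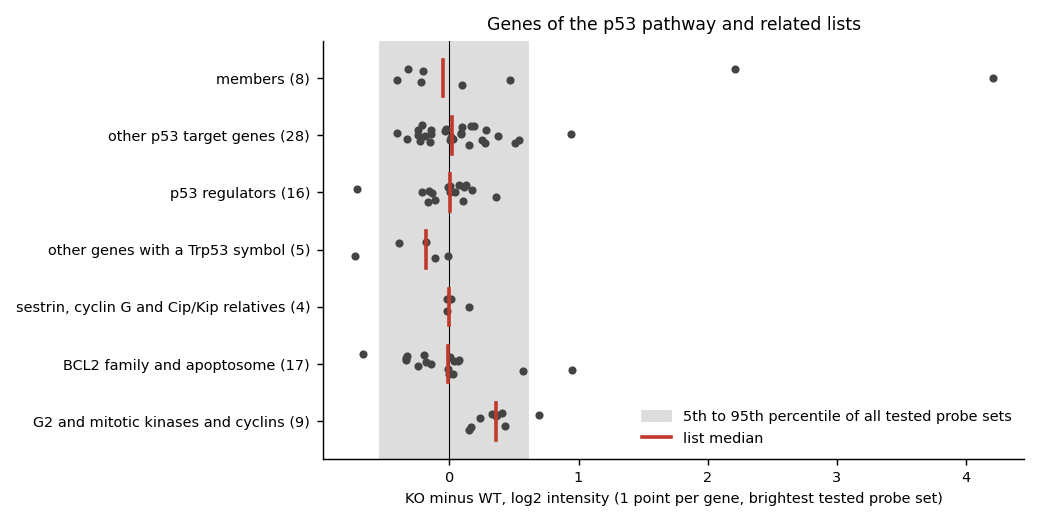
Difference KO minus WT in log2 intensity (x axis) for the tested genes of each list (rows, number of genes in brackets), with the list median as a red line and the 5th to 95th percentile of all tested probe sets, -0.54 to 0.61, in grey. Rgcc and Trp53i11 are the points at 4.21 and 2.21, and most other points lie in the grey band.

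The genes most like Rgcc and Trp53i11 were sought by the mean absolute difference of their profiles over the 6 arrays, each centred on its own mean, among 9679 tested genes. The nearest profile to Rgcc was that of Sfrp5, a secreted Wnt antagonist, at 0.38 log2 units. It read 8.36, 8.55 and 7.81 in KO 1 to KO 3, against 4.63, 3.51 and 6.24 in WT 1 to WT 3, with the same highest and lowest control as Rgcc. Sycn, which encodes the granule protein syncollin, followed at 0.60, then Cblif, the gene of intrinsic factor, at 0.91, the neuritin gene Nrn1 at 0.95 and the metallothionein gene Mt1 at 0.99. Nearest to Trp53i11 were Cnpy1 (0.29), the carboxypeptidase N gene Cpn1 (0.42), the T cell receptor gamma segment Trgv1 (0.43), the pleckstrin gene Plek of leukocytes and platelets (0.47) and again Mt1 (0.51). The WT means of Cnpy1, Cpn1 and Trgv1, like that of Cblif, were under the filter level of 4. These genes entered the ranking through their higher KO values, so their WT readings are close to the floor. Trp53i11 was number 28 in the order of likeness to Rgcc, at 1.31. In the order of likeness to Trp53i11, Rgcc was number 8944 of 9679. Mdm2, Cdkn1a, Ccng1, Zmat3 and Sesn1 lay between 2.05 and 2.31 from Rgcc, and Trp53inp1 at 1.87. This measure favours genes with a like range of signal and carries no test. Rgcc was chosen for its wide group gap, so a gene without such a gap lies far from it by that choice. Nothing is read from the distances of the other members.

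**Figure D5:**
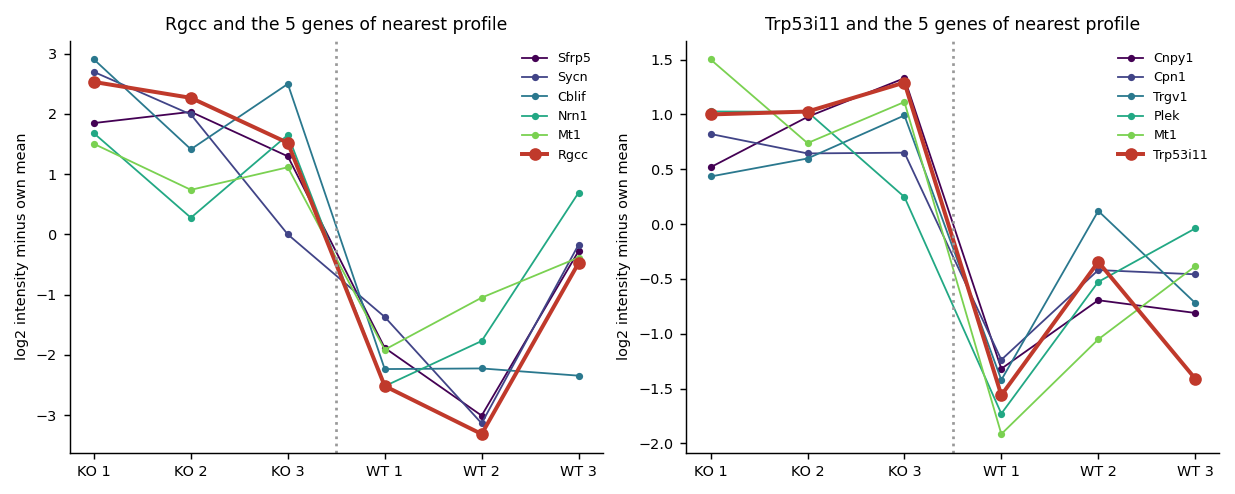
Log2 intensity minus each gene's own mean (y axis) on the 6 arrays (x axis, KO left of WT) for Rgcc and for Trp53i11 (thick red lines) and the 5 genes of nearest profile; lines only join the points of a gene. Averaged over the 6 arrays, Sfrp5 lies 0.38 from Rgcc and Cnpy1 lies 0.29 from Trp53i11, with wider gaps on single arrays.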

How the data were processed

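Total RNA of jejunal crypt epithelium from 3 Sox9-deficient mice and 3 littermate controls was hybridised to 1 array each. The authors deposited log2 intensities, made with GCRMA and limma per the submitters' processing notes, without versions or settings. Array controls (64 probe sets) were left out. Symbols came from the platform annotation, where 34945 probe sets had 1 symbol, 932 several and 9160 none. Through gene identifiers, 34741 of those with 1 symbol matched a RefSeq table of GRCm38.p6 and 0 symbols changed. No column of another sample was present (0).

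The 18108 probe sets averaging 4 or more entered limma 3.58.1 under R 4.3.3 (functions lmFit and eBayes, KO minus WT, two-sided, Benjamini-Hochberg over all tested, threshold 0.05, 4 residual and 2.59 prior degrees of freedom), after testing on simulated data. With 3 mice in each group the smallest two-sided p of an exact permutation test is 0.1. The members, the 12 gene lists and the tests were chosen with earlier results of these data known. Some genes stand in more than a single list, among them Sesn2, Bbc3, Pmaip1, Apaf1, Trp53bp1, Trp53bp2 and Lyz1. Each list used the brightest tested probe set of a gene, and up to 4 genes of smallest p were named in each pathway list, with the 5 nearest profiles to Rgcc and Trp53i11. The labels call the mice littermates, but do not say which share a litter, and same-numbered mice did not deviate together (correlations -0.049, -0.285 and 0.025). Alternatives were another filter or none, 2 normalizations, other variance models, a replicate block, terms for Y-linked signal and Gapdh, 1 probe set per gene and each array left out. Motifs were searched in RefSeq promoter windows with Python 3.11.15.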

Additional observations from a re-analysis of the deposited data

How the results depend on the processing

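With 3 arrays in each group, calls rest on single mice. Over all 18108 probe sets limma called 2, both lower in KO, with 655 at an unadjusted p under 0.05. It called 0 with no filter (1112 at an unadjusted p under 0.05), with no moderation (633), with the Y-linked term (854) and with the Gapdh term (805), 1 with a mean of at least 6, 4 after quantile normalization and 11 with array weights. With each array left out the count ran from 0 to 16, with 0 without WT 1 (726 at an unadjusted p under 0.05) and without WT 2 (559), and 16 without WT 3. The numbers of the mice share no stated litter. The replicate block gave 0 calls in all (614 at an unadjusted p under 0.05) and 0 among the members.

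Among the member probe sets limma called 0, and with each array left out the count ran from 0 to 2, the 2 being those of Rgcc without WT 3. Rgcc and Trp53i11, which also hold the 3 at an unadjusted p under 0.05, were chosen by this very difference, so nothing is read from these counts. Of the other 12 probe sets 0 passed under any alternative. Rgcc and Trp53i11 were higher in KO under every alternative run, Rgcc by 2.57 to 5.02 and 3.88 to 6.08 on its probe sets and Trp53i11 by 1.98 to 2.59. Cblif was named for its likeness to Rgcc, so a higher KO reading comes with that choice, and nothing is read from its calls. It passed under 4 alternatives but not in the main fit (limma adjusted p = 0.063), and its WT mean, 3.38, was under the filter level. Of the 6 pathway lists, 0 genes passed under any alternative.

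Directions of values that never passed turned as follows, and the cause was not tested. With array weights the value became 0.21 for the dimmer Cdkn1a probe set, 0.0662 for Zmat3, 0.123 for the dimmest tested Sesn1 probe set, 0.00454 for Trp53bp2, -0.0695 for Sesn2, -0.11 for Ccng2 and 0.15 for Cdkn1b. With the Y-linked term it became 0.26 for Cdkn1a, -0.24 for the middle Ccng1 probe set, 0.0118 for Sesn1, -0.39 for Trp53inp1, -0.42 for Sesn2, 0.0375 for Sesn3 and -0.19 for Bcl2l11. Quantile normalization gave -0.0353 for that Ccng1 probe set. With each array left out in turn, values ran from -0.0162 to 0.26 for Mdm2 1423605_a_at, from -0.61 to 0.34 for Cdkn1a 1421679_a_at, from -0.0962 to 0.12 for Ccng1 1450017_at, from -0.87 to 0.0724 for Zmat3, from -0.59 to 0.22 for Sesn1 1438931_s_at, from -0.33 to 0.57 for Sesn1 1454699_at, from -0.41 to 0.36 for Sesn1 1433711_s_at, from -0.084 to 0.37 for Chek1. They ran from -0.041 to 0.59 for Kat5, from -0.28 to 0.0479 for Trp53bp2, from -0.18 to 0.24 for Sesn2, from -0.12 to 0.0627 for Sesn3, from -0.21 to 0.55 for Ccng2 and from -0.15 to 0.17 for Cdkn1b. With a filter at 6, Zmat3 and the dimmer Mdm2 probe set gave no value, and 1 probe set per gene left the brightest of each.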
